A study of Drosophila melanogaster with 8 samples.

Results

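AGO2 ChIP-seq peaks were examined at the microRNA (miRNA) loci of Drosophila melanogaster. The loci are the 262 genes of the annotation of genome build dm6 whose symbols begin with mir-, out of 17873 annotated genes other than transposable elements. Each of them is the hairpin from which a mature miRNA is cut, with a median length of 92 bp and a range of 50 to 174 bp. A hairpin was counted as having a peak when a peak overlapped it or lay within 1500 bp of it. In total 73 of the 262 hairpins had a peak in at least 1 of the 4 peak lists, and 189 had none.

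Argonaute 2 (AGO2) was immunoprecipitated from Kc167 cells, an established cell line of embryonic origin, with matched input chromatin. Mock-treated cells were compared with cells that received 10 µM triptolide, which blocks initiation of transcription, for 60 min. The 8 samples were 2 AGO2 immunoprecipitations and 2 inputs per treatment, and the authors called peaks in each immunoprecipitation separately. The question of the comparison was whether AGO2 stays on chromatin when initiation is blocked, in the only cell line used. ChIP-seq measures occupancy of DNA, so the level of each miRNA in these cells was not measured here.

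In flies, primary miRNA transcripts are cut in the nucleus by Drosha with its partner Pasha, and the hairpin is cut again in the cytoplasm by Dicer-1 with Loquacious. The mature strand is mostly loaded into AGO1, while AGO2 mainly takes siRNAs made by Dicer-2. Many hairpins lie inside a host gene and are transcribed from its start site. Mirtrons are hairpins that fill a short intron and are released by splicing instead of Drosha. The seed, bases 2 to 8 of the mature strand, guides target choice, so miRNAs with the same seed form families.

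The following mature strands belong to hairpins whose host gene had an AGO2 peak at its transcription start site (TSS) in both mock lists. They are shown to identify the families concerned. Seeds are in capitals. The first 3 share a seed, as do the next pair.
mir-2a-1, 3p arm (chr2L:19569902-19569924, minus strand): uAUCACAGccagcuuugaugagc
mir-2b-2, 3p arm (chr2L:19570189-19570211, minus strand): uAUCACAGccagcuuugaggagc
mir-11, 3p arm (chr3R:21622504-21622524, minus strand): cAUCACAGucugaguucuugc
mir-9c, 5p arm (chr2L:16697936-16697957, plus strand): uCUUUGGUauucuagcuguaga
mir-9b, 5p arm (chr2L:16698758-16698780, plus strand): uCUUUGGUgauuuuagcuguaug
mir-ban, 3p arm (chr3L:642259-642281, plus strand): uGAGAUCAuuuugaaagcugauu
mir-34, 5p arm (chr3R:10100952-10100975, plus strand): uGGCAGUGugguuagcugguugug
mir-277, 3p arm (chr3R:10100080-10100102, plus strand): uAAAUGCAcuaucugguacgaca

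A further group of strands is shown because a peak lay on the hairpin itself in both lists of a treatment. The first 3 were overlapped by mock peaks and the last pair by triptolide peaks. Seeds are again in capitals.
mir-9377, 5p arm (chrX:12665217-12665238, plus strand): cGCUCUUUcucucuaucuggcc
mir-4962, 5p arm (chrX:3777408-3777431, plus strand): uUUCCCUCucucuguuuacauuga
mir-2496, 5p arm (chrX:2010310-2010333, plus strand): gUGCGUGUgugagaggccaucgua
mir-2499, 3p arm (chrX:19557067-19557090, plus strand): aUGCGGAUgacauucacguccgua
mir-4973, 3p arm (chr2L:20562424-20562445, plus strand): uGCAACACucacaccacggcaa

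The next windows of 81 bp show the DNA under single peaks and were picked as examples after their sequences were seen. Most mock windows shown hold GAGAG and most triptolide windows do not, but the host TSS window of mir-ban in mock and the mir-9388 window in triptolide are shown because they go the other way. At E2f1 the mock 1 summit window, at the TSS itself, held neither GAGAG nor CAGCAG on either strand and is not printed. Each window is centred on a peak summit and read 5′ to 3′ on the strand of the hairpin. Capitals mark GAGAG and CAGCAG and their reverse complements CTCTC and CTGCTG. The strands above and these windows were read from the RefSeq annotation and sequence of Release 6, the assembly called dm6, in which 260 of the 262 hairpins had a mature arm.
grp TSS, host of mir-9c, mock 1 (chr2L:16685261-16685341): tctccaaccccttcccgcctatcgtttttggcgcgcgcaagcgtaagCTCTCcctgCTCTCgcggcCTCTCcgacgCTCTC
lncRNA:CR43459 TSS, host of mir-277 and mir-34, mock 1 (chr3R:10093628-10093708): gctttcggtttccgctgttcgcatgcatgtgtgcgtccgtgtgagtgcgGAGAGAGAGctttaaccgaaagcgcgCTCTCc
E2f1, host of mir-11, upstream of its TSS, mock 2 (chr3R:21633663-21633743): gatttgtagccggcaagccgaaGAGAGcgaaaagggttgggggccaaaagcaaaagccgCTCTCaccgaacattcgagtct
E2f1, coding sequence near mir-11, triptolide 2 (chr3R:21622917-21622997): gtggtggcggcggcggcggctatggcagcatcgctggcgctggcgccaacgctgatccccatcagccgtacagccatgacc
mir-317, upstream of the hairpin, mock 2 (chr3R:10089396-10089476): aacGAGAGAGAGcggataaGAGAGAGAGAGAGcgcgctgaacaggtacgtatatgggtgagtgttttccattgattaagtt
mir-4955, upstream of trol, mock 2 (chrX:2545612-2545692): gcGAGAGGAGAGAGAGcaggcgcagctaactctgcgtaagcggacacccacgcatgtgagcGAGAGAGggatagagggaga
mir-9377, on the hairpin, mock 2 (chrX:12665203-12665283): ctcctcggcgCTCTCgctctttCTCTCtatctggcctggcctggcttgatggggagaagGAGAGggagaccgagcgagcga
lncRNA:CR43334 TSS, host of mir-ban, mock 2 (chr3L:628161-628241): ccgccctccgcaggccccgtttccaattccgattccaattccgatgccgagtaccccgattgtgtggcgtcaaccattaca
mir-9388, near the Mes2 TSS, triptolide 2 (chr3L:22945448-22945528): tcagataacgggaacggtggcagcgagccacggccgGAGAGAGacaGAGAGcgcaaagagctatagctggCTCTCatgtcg
mir-1003, coding sequence of its host, triptolide 2 (chr3R:24658927-24659007): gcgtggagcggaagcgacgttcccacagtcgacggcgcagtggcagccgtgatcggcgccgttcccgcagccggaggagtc
mir-965, coding sequence of kis, triptolide 2 (chr2L:241586-241666): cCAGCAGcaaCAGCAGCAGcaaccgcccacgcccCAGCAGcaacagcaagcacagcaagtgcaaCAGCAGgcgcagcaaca

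More hairpins had a peak in the triptolide lists than in the mock lists, and so did genes in general. Hairpins with a peak numbered 16 in mock 1, 18 in mock 2, 48 in triptolide 1 and 47 in triptolide 2. On average 17.0 ± 1.41 hairpins in mock had a peak and 47.5 ± 0.707 hairpins in triptolide (SD, n = 2 each), which is 2.79 times as many, or 1.48 on the log2 scale. An exact permutation test, two-sided, gave p = 0.33, and 2 lists against 2 allow no smaller value. The groups did not overlap, and the gap between them exceeded the spread within either. The 4 lists themselves held 1055, 1919, 5594 and 5873 peaks, a ratio of 3.86 between treatments. In percent of all hairpins the 4 lists reached 6.11, 6.87, 18.3 and 17.9%. Among the 17611 other genes, measured from their 5′ ends, the background was 4.27, 7.85, 21.5 and 21.1%, a ratio of 3.51. The hairpins lay above the other genes in mock 1 and below them in the other lists.

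The direction of this difference turned when lists of equal length were compared. With the 1055 highest-scoring peaks of each list, 16, 15, 13 and 11 hairpins had a peak, which is -0.37 on the log2 scale (exact permutation test, two-sided, p = 0.33). With a −log10 q-value of at least 5, 13, 18, 20 and 14 hairpins had one, which is 0.13 (exact permutation test, two-sided, p = 0.67). The lists of the treatments then overlapped. Read depth was unknown, and the length of a list and the treatment cannot be told apart here.

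**Figure D1:**
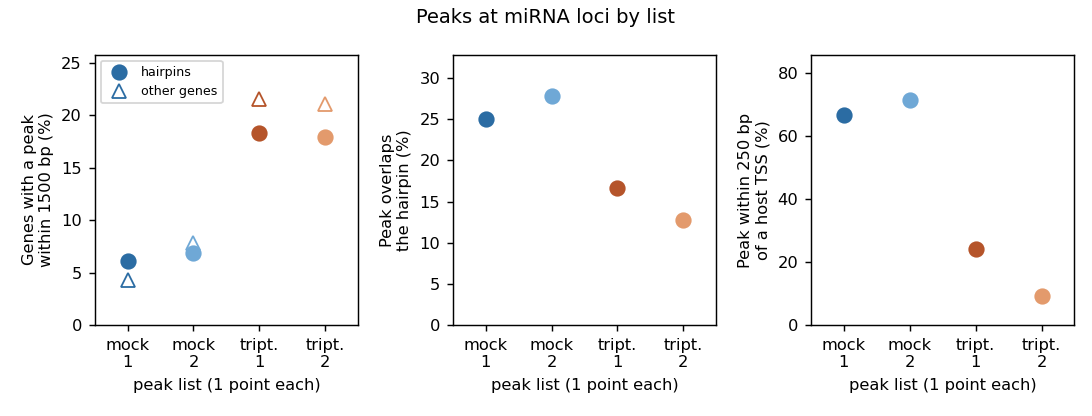
Percent of genes with a peak within 1500 bp (left; circles, hairpins; triangles, other genes), of hairpins with a peak whose peak overlaps the hairpin (middle) and of hosted hairpins with a peak whose peak lies within 250 bp of a host TSS (right), with 1 point per peak list. Triptolide lists sit higher on the left (18.3 and 17.9% of hairpins) and lower on the right (24.2 and 9.38%) than mock lists.

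Replicates of the mock treatment shared nearly all their miRNA loci. All 16 hairpins of mock 1 were also in mock 2, which was 88.9% of the mock 2 hairpins. The triptolide lists shared 34 hairpins, 70.8% of those in triptolide 1 and 72.3% of those in triptolide 2. Thus 6.11% of the hairpins had a peak in both mock lists, beside a background of 4.02% of other genes. For both triptolide lists the share was 13.0%, beside a background of 13.6%.

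The treatments mostly marked different loci. In total 10 hairpins (3.82%, background 1.99%) were in both mock lists and in no triptolide list. A further 30 (11.5%, background 11.7%) were in both triptolide lists and in no mock list. This last count fell to 2 with lists of equal length, to 3 with a −log10 q-value of at least 5 and to 10 with a window of 500 bp, while the count for mock alone was 10, 8 and 9 under these settings. Only 4 (1.53%, background 0.954%) were in all 4 lists, and 2, mir-4968 and mir-9377, were in both mock lists and triptolide 1. Of the rest, mir-8 and mir-ban were in mock 2 alone, and 25 hairpins were in 1 triptolide list alone. The shares in both mock lists stood above their background, from few hairpins, and the triptolide shares close to theirs. In mock 2 taken by itself the hairpins were below the other genes (6.87 against 7.85%). Whether the mock shares exceed their background was not tested. As small RNA genes of other kinds, the 613 snoRNA, snRNA and tRNA genes had a peak within 1500 bp in both mock lists at 1.96% and in both triptolide lists at 9.14%.

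**Figure D2:**
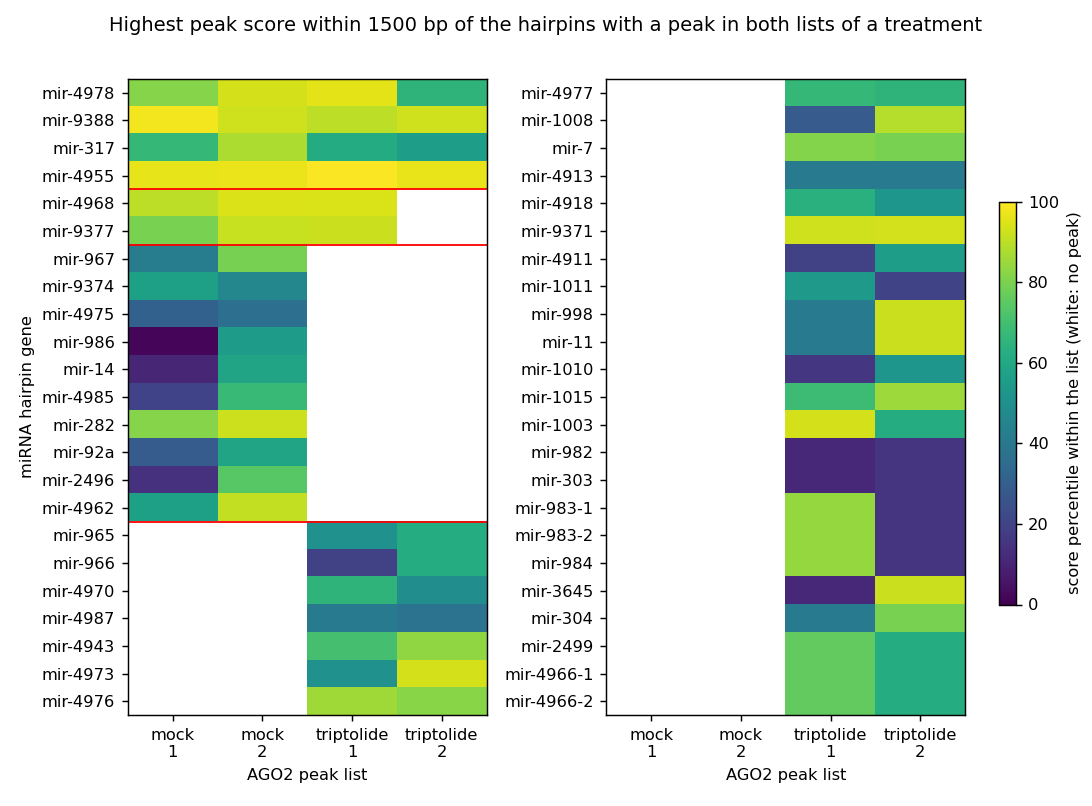
Score percentile within its list of the highest peak within 1500 bp, for the 46 hairpins with a peak in both lists of a treatment (rows) in the 4 lists (columns); white cells have no peak, and red lines separate the patterns of lists. Only the top 4 rows are filled in all lists, and the 30 rows below the last line are filled in triptolide alone.

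The 4 hairpins in all lists were mir-4955, mir-9388, mir-317 and mir-4978. At each of them both triptolide peaks overlapped the mock 2 peak. Score percentile, the rank of a peak by the authors' score within its list, served to set lists side by side, since the deposited fold was lower in triptolide lists in general (medians over all peaks 5.00 and 4.73 in mock, 3.40 and 3.46 after triptolide).

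mir-4955 (chrX:2544740-2544908) lies in an exon of trol, the gene of the basement membrane protein perlecan. Its peak had a score percentile of 96.1 and 96.9 in the mock lists and of 99.3 and 96.6 in the triptolide lists. Folds over local background in the mock lists were 8.28 and 10.87, and in the triptolide lists 4.82 and 4.00. This locus was thus near the top of every list, with summits 746 to 828 bp from the hairpin. The same summits lay 143 to 225 bp from a trol TSS.

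mir-9388 (chr3L:22945116-22945207) lies between genes, close to Mes2. Score percentiles were 98.4 and 92.9 in mock, with 90.0 and 92.7 in triptolide. Folds over local background in the mock lists were 9.92 and 9.19, and in the triptolide lists 3.02 and 3.88. All 4 summits fell within 321 to 344 bp of the hairpin and 152 to 175 bp from the Mes2 TSS, and the mock 2 peak reached the hairpin.

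mir-317 (chr3R:10091126-10091217) is the first hairpin of a cluster with mir-277 and mir-34, a miRNA known for its role in ageing. Its peak ranked at percentiles 66.5 and 87.7 in mock, with 61.4 and 55.9 in triptolide. Folds over local background in the mock lists were 4.42 and 7.72, and in the triptolide lists 2.80 and 2.94. The summits stood 1670 to 1740 bp upstream of the hairpin, in an exon of lncRNA:CR45054, a noncoding RNA gene. The window printed above for mir-317, from mock 2, holds long GAGAG runs. The 81 bp window at the triptolide 2 summit, not printed, held neither GAGAG nor CAGCAG on either strand. GAGAG was within 150 bp of the summit in all 4 lists.

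mir-4978 (chr2R:14005860-14006006) lies antisense to a gene, and its peaks fell in an intron of mam (mastermind), which encodes a coactivator of Notch signalling. The score percentile was 81.8 and 93.6 in mock, with 96.0 and 65.2 in triptolide. Folds over local background in the mock lists were 7.23 and 14.72, and in the triptolide lists 4.88 and 3.53. The summits varied by few bases, from 1028 to 1046 bp from the hairpin, and lay over 2 kb from any TSS (2220 to 2238 bp).

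At all 4 loci the fold was higher in both mock lists than in both triptolide lists, as it was for peaks in general, while the ranks overlapped between treatments at mir-4955 and mir-4978. At mir-317, and by little at mir-9388, both mock ranks were above both triptolide ranks.

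Next came the hairpins with the highest mean score rank in mock. mir-4968 (chr3L:11552539-11552693) lies in an intron of Mob2, which encodes a kinase adaptor. Its peak had score percentiles of 90.2 and 94.7 in mock and 94.5 in triptolide 1, with none in triptolide 2. The summit stood 267 to 310 bp from a Mob2 TSS in the 3 lists.

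mir-9377 (chrX:12665217-12665268) lies in an intron of Tis11, which encodes a zinc finger protein of mRNA decay. Its peak had score percentiles of 80.0 and 91.5 in mock and 92.1 in triptolide 1. The summits fell 36, 1 and 43 bp from the centre of the hairpin, and over 4 kb from the nearest TSS (4709 to 4751 bp). The peaks of these 3 lists all covered the hairpin, while only the mock 2 summit fell on it.

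mir-282 (chr3L:3251022-3251118) lies in an exon of its own noncoding host, lncRNA:CR43626. Score percentiles were 82.0 and 92.3 in mock, with folds of 6.89 and 11.60, and the summits lay 74 and 45 bp from a start site of that gene. mir-4962 (chrX:3777382-3777505) lies in an intron of Tlk, the Tousled-like kinase. In each mock list it had a peak on the hairpin, with percentiles of 41.5 and 55.2, and a higher-ranked peak at a Tlk TSS, with percentiles of 57.0 and 90.9. No triptolide list had a peak within 1500 bp of either hairpin.

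The other hairpins in both mock lists were mir-967 in bun, a TSC22-type gene of growth control, mir-9374 in the nuclear receptor gene Hr39, mir-92a in jigr1, mir-986 in the cytochrome P450 gene Cyp4e2, mir-4975 in CG45092, mir-4985 in Fatp3, mir-14 in lncRNA:CR43651 and mir-2496 between genes. Their score percentiles ranged from 1.6, for mir-986 in mock 1, to 79.3, for mir-967 in mock 2. mir-14, a suppressor of cell death in flies, had percentiles of 10.7 and 58.5 with peak edges 12 and 53 bp from the hairpin. mir-ban (bantam, a growth promoting miRNA) and mir-8, of the miR-200 family, each had a mock 2 peak of percentile 16.4 and none in mock 1.

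Among the hairpins in both triptolide lists and no mock list, the 4 with the highest mean rank after triptolide had their highest-scoring peaks in coding sequence. mir-4955 and mir-9388, in all 4 lists, ranked as high with intergenic summits. mir-9371 (chr3R:9989120-9989180) had percentiles of 92.9 and 93.2, with summits 1807 and 2004 bp away in coding sequence of Glut4EF and the overlapping CG46467. mir-4976 (chr2R:6835533-6835635) had percentiles of 85.9 and 82.2, in coding sequence of CG15236. mir-7 (chr2R:20606067-20606154), a regulator of photoreceptor differentiation in the HnRNP-K gene, had percentiles of 81.3 and 79.7, with summits 918 and 1084 bp away. mir-1003 (chr3R:24658605-24658660), a mirtron of CG6695, had percentiles of 93.6 and 61.8, with both summits 335 bp away in CG6695 coding sequence. None of the 4 had a mock peak within 1500 bp.

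The remaining hairpins in both triptolide lists alone were mir-965 (in kis, a chromatin remodeller gene), mir-966 (in Pfas, of purine synthesis), mir-4970, mir-4987, mir-4943, mir-4973, mir-4977 (in Eaf), mir-1008, mir-4913, mir-4918, mir-4911 (in ND-23, of respiratory complex I), mir-1011, mir-998, mir-11, mir-1010, mir-1015, mir-982, mir-303, mir-983-1, mir-983-2, mir-984, mir-3645, mir-304, mir-2499, mir-4966-1 and mir-4966-2. Percentiles of triptolide peaks at hairpins covered nearly the whole scale, from 0.5 to 99.3 in triptolide 1 and from 0.7 to 96.6 in triptolide 2, with medians of 52.3 and 55.9. Mock peaks at hairpins had medians of 57.0 and 70.7.

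Few peaks lay on the hairpin itself. A peak overlapped the hairpin, by at least 1 bp, in 4 of the 16 hairpins with a peak in mock 1 (25.0%), 5 of 18 in mock 2 (27.8%), 8 of 48 in triptolide 1 (16.7%) and 6 of 47 in triptolide 2 (12.8%). The mean share was 26.4 ± 1.96% in mock and 14.7 ± 2.76% after triptolide (SD, n = 2), a difference of -11.7 percentage points (exact permutation test, two-sided, p = 0.33). The lists of the treatments did not overlap in this share. A wider peak reaches a hairpin more easily, and the part that peak width plays was not tested. Over all 262 hairpins the count was 4 in both mock lists and 4 in both triptolide lists, which is 1.53% for each. Among snoRNA, snRNA and tRNA genes, 0 (0%) had a peak on the gene in both mock lists and 2 (0.326%) in both triptolide lists.

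The 4 hairpins overlapped in both mock lists were mir-4985, mir-2496, mir-4962 and mir-9377. Those overlapped in both triptolide lists were mir-4973, mir-4977, mir-1008 and mir-2499. No hairpin was overlapped in both lists of both treatments, and mir-9377 was also overlapped in triptolide 1. A peak of a lone list overlapped mir-9388 in mock 2, mir-4911, mir-4917 and mir-4958 in triptolide 1, and mir-4976 and mir-1015 in triptolide 2. That makes 14 hairpins overlapped in any list.

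Summits stood at a median distance from the centre of the hairpin of 550.0 and 710.5 bp in the mock lists, and of 922.5 and 985.0 bp in the triptolide lists. They came within 250 bp of it in 5 of 17 and 4 of 20 hairpin-peak combinations in mock, and in 7 of 58 and 6 of 54 after triptolide.

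**Figure D3:**
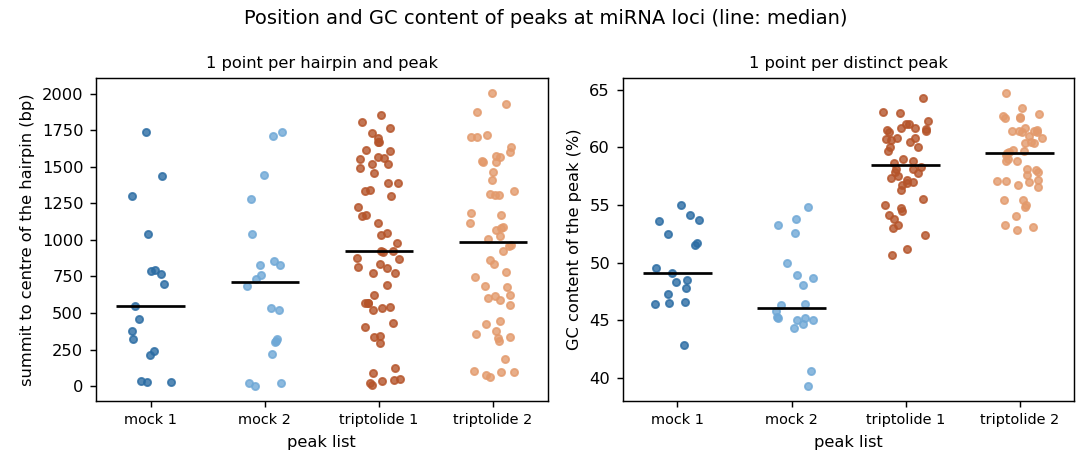
Distance from peak summit to the centre of the hairpin in bp (left, 1 point per hairpin and peak) and GC content of each distinct peak at a hairpin in percent (right), by list, with the median as a line. Distances overlap widely, while median GC content is 49.1 and 46.0% in mock and 58.4 and 59.5% after triptolide.

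The peaks near hairpins fell in different parts of genes. In mock, summits of 1 of 17 and 0 of 20 distinct peaks at hairpins lay in coding sequence. After triptolide, 35 of 46 and 36 of 45 did. The same held across all peaks on the assembled chromosomes, at 6.49 and 9.94% in the mock lists against 81.7 and 86.6% in the triptolide lists. A summit within 250 bp of the TSS of any gene was found for 9 of 17 and 10 of 20 of the mock peaks at hairpins, and for 6 of 46 and 4 of 45 of the triptolide peaks. Over all peaks the share was 47.7 and 42.1% for mock, against 7.06 and 5.66% for triptolide, so the peaks at hairpins followed the lists as a whole.

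GC content moved with the treatment too. Peaks at hairpins ranged from 42.9 to 55.0% in mock 1 and from 39.3 to 54.8% in mock 2. They ranged from 50.7 to 64.3% in triptolide 1 and from 52.8 to 64.7% in triptolide 2. Medians over all peaks were 51.2, 48.9, 58.9 and 59.8%. The part that GC content plays in these calls was not tested.

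The GAGAG motif, on either strand, was within 150 bp of the summit in 16 of 17 and 19 of 20 mock peaks at hairpins, against 23 of 46 and 16 of 45 triptolide peaks. Over all peaks it was found in 90.0 and 83.5% for mock, against 34.7 and 32.1% for triptolide. It occurred in 30.3% of consecutive windows of the same length across the chromosome arms and in 33.6% of windows centred on TSSs of protein-coding genes. The CAGCAG motif was in 5 of 17 and 6 of 20 mock peaks at hairpins, against 21 of 46 and 27 of 45 triptolide peaks. Over all peaks it was in 32.2, 32.5, 56.8 and 59.2%, and in 22.1% of consecutive windows and 21.7% of TSS windows. These are matches of letters and not measured binding sites.

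Of the 262 hairpins, 184 lay in a host, meaning another gene on the same strand that held the whole hairpin. The place of the peak relative to the host TSS differed between the treatments. A peak was called at the host TSS when it overlapped the 250 bp on either side of the start of a host transcript that holds the hairpin. Among hosted hairpins with a peak within 1500 bp, this was so for 8 of 12 in mock 1 (66.7%), 10 of 14 in mock 2 (71.4%), 8 of 33 in triptolide 1 (24.2%) and 3 of 32 in triptolide 2 (9.38%). The mean share was 69.0 ± 3.37% in mock and 16.8 ± 10.5% after triptolide (SD, n = 2), a difference of -52.2 percentage points (exact permutation test, two-sided, p = 0.33). Every mock list stood above every triptolide list.

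Hosted hairpins with mock peaks also had a host TSS nearby more often. They were chosen by a peak within 1500 bp, so peaks at host TSSs select such hairpins, and nothing is read from this. A host TSS lay within 1500 bp of 10 of the 12 hosted hairpins in both mock lists, of 8 of the 21 in both triptolide lists and of 70 of all 184 hosted hairpins (38.0%). The peak was at the TSS in both lists for 8 of those 12 in mock, namely mir-967, mir-9374, mir-4975, mir-986, mir-4985, mir-4968, mir-4955 and mir-4962. For triptolide it was so for 3 of 21, namely mir-4973, mir-1008 and mir-4955. Over 13986 protein-coding genes, 3.72% had a peak at a TSS in both mock lists and 4.38% in both triptolide lists. These are shares of all genes, with or without a peak. They stand beside 8 and 3 of all 184 hosted hairpins, and not beside 8 of 12 and 3 of 21. The hairpin counts also take only peaks within 1500 bp of the hairpin.

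Host start sites far from the hairpin were examined as well, a step added after the data were seen. A peak at a host TSS, at any distance from the hairpin, was present for 29 of the 184 hosted hairpins in mock 1, 44 in mock 2, 24 in triptolide 1 and 8 in triptolide 2. The mean was 36.5 ± 10.6 in mock and 16.0 ± 11.3 after triptolide (SD, n = 2), a difference of -20.5 hairpins (exact permutation test, two-sided, p = 0.33). The lists of the treatments did not overlap, but mock 1 and triptolide 1 differed by less than the spread within either treatment. Only 8 of the 29 hairpins with a host TSS peak in both mock lists also had a peak within 1500 bp in both mock lists.

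Counted by host gene, and at any of its start sites, 29 of 167 hosts (17.4%) had a TSS peak in both mock lists, against 3.13% of the 17444 genes that host no hairpin. In both triptolide lists, 7 hosts (4.19%) had one, against 3.75% of other genes. In the single lists the shares of hosts were 17.4, 25.2, 13.2 and 5.99%, against 3.28, 5.68, 7.46 and 7.01% of other genes. Hosts had a median of 2.0 start sites and other genes a median of 1.0, and the part this plays was not tested.

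**Figure D4:**
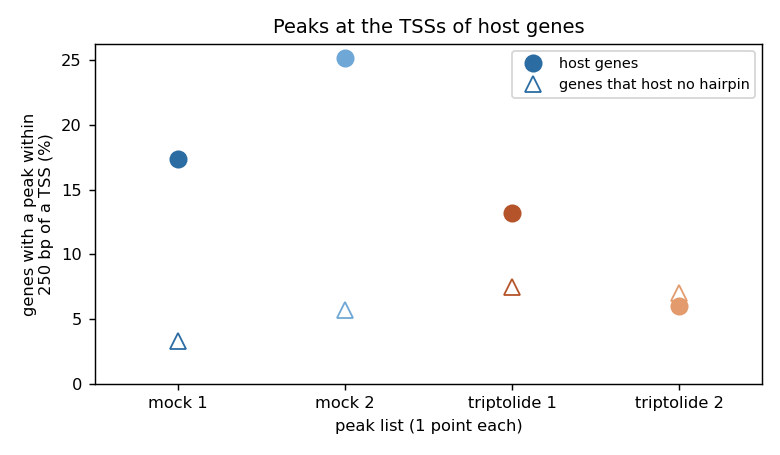
Percent of genes with a peak within 250 bp of any of their TSSs, by list, for the 167 genes that host a hairpin (circles) and the 17444 that host none (triangles). Hosts are above other genes in both mock lists and in triptolide 1 (13.2 against 7.46%), and below them in triptolide 2 (5.99 against 7.01%).

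Several conserved miRNAs were among the 29 hairpins. The cluster of mir-9c, mir-306, mir-79 and mir-9b lies in grp, which encodes the checkpoint kinase Chk1. The grp TSS peak, 12534 bp from mir-9c, had percentiles of 99.0 and 98.8 in mock and 96.8 in triptolide 1, with folds of 12.74, 16.83 and 3.54. There was none in triptolide 2. It was among the top-ranked peaks of each list that held it.

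The cluster of mir-2a-2, mir-2a-1 and mir-2b-2 lies in spi, the gene of the EGF receptor ligand Spitz. The spi TSS peak had percentiles of 34.1 and 71.9 in mock and was in neither triptolide list. mir-11 and mir-998 lie in E2f1, a cell cycle transcription factor gene. The E2f1 TSS peak, 10502 bp from mir-11, had percentiles of 79.2 and 92.8 in mock and 89.1 in triptolide 1. The miR-2 and miR-11 strands printed above, which repress cell death genes in flies, carry the seed AUCACAG, which is found in 14 hairpins. Of these 14, 4 had a host TSS peak in both mock lists, beside 29 of all 184 hosted hairpins (15.8%). None had one in both triptolide lists, beside 6 of 184 (3.26%). Of the 3 hairpins with the seed CUUUGGU, mir-9b and mir-9c had one in both mock lists. The same spi peaks count for mir-2a-1, mir-2a-2 and mir-2b-2, and the same grp peaks for mir-9b and mir-9c. These hairpins are thus not independent, and nothing is read from the counts by seed.

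The host TSS peak of mir-ban, at lncRNA:CR43334 and 13773 bp from the hairpin, had percentiles of 59.7 and 74.4 in mock and no counterpart after triptolide. For mir-184, at lncRNA:CR44206 and 15307 bp away, they were 33.5 and 64.6. For mir-190, in rhea (talin) and 25124 bp away, they were 67.7 and 88.5. For mir-277 and mir-34, at lncRNA:CR43459, they were 22.5 and 68.8. None of the first 3 had a host TSS peak in a triptolide list, and the last had one at 423 bp from the TSS in triptolide 1.

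Of these 29 hairpins, 14 had no host TSS peak in a triptolide list, 12 had one in 1 list and 3 had one in both. The 3 were mir-278, mir-4955 and mir-4962. In total 6 hairpins had a host TSS peak in both triptolide lists, the others being mir-4973, mir-987 and mir-1008. These counts take any peak at any host TSS and do not require it to overlap the mock peak. In triptolide 1 the peak for mir-929 was at another cpx TSS than in mock. That for mir-277 and mir-34 did not overlap the mock peaks. Hairpins sharing a host, as in grp and E2f1, count the same peak repeatedly. The matching share for other genes was not computed. Distinct peaks at host TSSs with GAGAG within 150 bp of the summit were 23 of 26 in mock 1 and 38 of 43 in mock 2. They were 13 of 19 in triptolide 1 and 5 of 8 in triptolide 2. Over all peaks the shares were 90.0% in mock 1, 83.5% in mock 2, 34.7% in triptolide 1 and 32.1% in triptolide 2. The mock shares at host TSSs were thus close to those of their lists. The triptolide shares were higher than those of their lists, from few peaks. GAGAG at the TSS peaks of other genes was not counted, so nothing is read from the triptolide shares.

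At E2f1 a coding peak near the hairpins was called in the triptolide lists alone, while the TSS peak was absent from triptolide 2 alone. Mock peaks lay at its TSS, and no mock peak lay within 1500 bp of mir-11 or mir-998. Triptolide 1 had both the TSS peak, of percentile 89.1, and a peak in E2f1 coding sequence 631 bp from mir-11, of percentile 40.8. Triptolide 2 had the coding peak alone, 195 bp from mir-11 and of percentile 92.1. The E2f1 windows printed above are from these places. rhea had TSS peaks in mock and 1 coding peak, 211 bp from mir-190 and of percentile 44.7, in triptolide 2.

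By position, 34 hairpins were mirtrons, 81 lay in an exon of a host, 69 in an intron, 27 antisense to a gene and 51 between genes. Mirtrons had no peak within 1500 bp in either mock list, and 12 of 34 had one in each triptolide list. In both triptolide lists, 9 of 34 mirtrons did (26.5%), namely mir-1008, mir-4913, mir-4918, mir-4911, mir-1011, mir-1010, mir-1015, mir-1003 and mir-3645. The summits of all 16 and all 15 distinct triptolide peaks at mirtrons lay in coding sequence. Beside these stand 13.0% of all hairpins and 13.6% of other genes with a peak in both triptolide lists, 6.11% of all hairpins with one in both mock lists, and 81.7 and 86.6% of all triptolide summits in coding sequence. With lists of equal length, 2 and 3 mirtrons remained with a triptolide peak.

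Of the intronic hairpins other than mirtrons, 8 of 69 were in both mock lists (11.6%) and 6 of 69 in both triptolide lists (8.70%). Exonic hairpins counted 4 and 6 of 81. Antisense hairpins counted 1 and 6 of 27, and hairpins between genes 3 and 7 of 51.

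**Figure D5:**
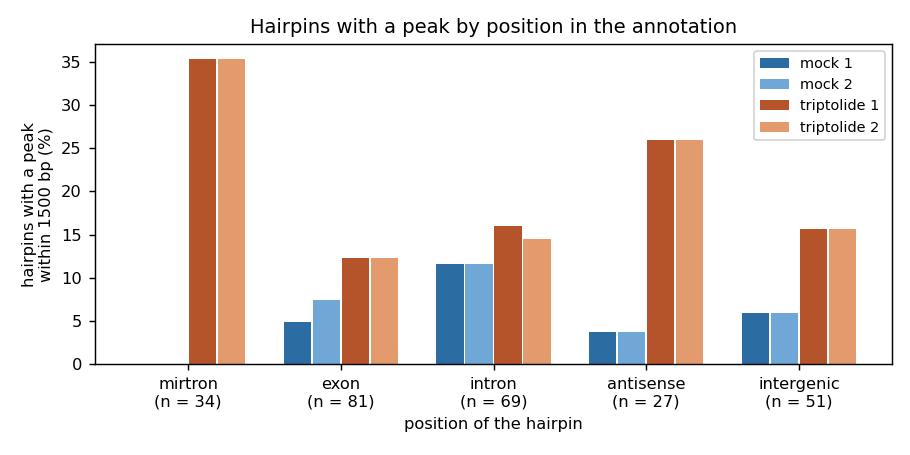
Percent of hairpins with a peak within 1500 bp, by position of the hairpin in the annotation and by list (bars; n, hairpins per class). Mirtrons have no bar in mock and 12 of 34 in each triptolide list, while intronic hairpins have 8 of 69 in both mock lists.

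Clustered hairpins, defined by gaps of at most 10 kb on the same strand, were compared with lone ones. There were 79 hairpins in 22 clusters and 183 single hairpins. A peak in any list was found for 18 of 79 clustered hairpins (22.8%, Wilson 95% interval 14.9 to 33.2%) and for 55 of 183 single ones (30.1%). In both mock lists it was 2 of 79 (2.53%), mir-317 and mir-92a, against 14 of 183 (7.65%). In both triptolide lists it was 12 of 79 (15.2%), in 5 clusters, against 22 of 183 (12.02%). Clustered hairpins share peaks, so hairpins of a cluster are not independent, and the interval covers counting error only. With each cluster counted once, 7 of 22 clusters (31.8%) had a member with a peak in any list. For both mock lists it was 2 of 22 (9.09%), and for both triptolide lists 5 of 22 (22.7%). Counted this way, clusters did not stand below single hairpins. However, a cluster counts if any of its hairpins has a peak, and it covers more sequence than a single hairpin. The shares are thus not alike, and nothing is read from them.

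The 7 clusters with a peak were small in number but showed how peaks are shared. mir-982, mir-303, mir-983-1, mir-983-2 and mir-984 on chromosome X all had a triptolide peak in both lists, from 2 distinct peaks in each, with summits in coding sequence of CG3626. In the X cluster of 12 hairpins from mir-972 to mir-979, 1 peak served mir-2499, mir-4966-1 and mir-4966-2 in each triptolide list, and a second served mir-979 in triptolide 2. In the Gmap cluster, mir-304 had a peak in both triptolide lists, mir-283 in triptolide 1 and mir-12 in triptolide 2. mir-281-1 and mir-281-2 shared 2 peaks in triptolide 1 alone.

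The other 15 clusters had no peak within 1500 bp in any list. Among them were the 8 hairpins from mir-309 to mir-6-3, which act in the early embryo, the mir-310 to mir-313 group, and the cluster of mir-100, mir-let7 and mir-125, which times development. The 3 hairpins of the last cluster had 0 host TSS peaks in any list as well.

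The genes of the miRNA machinery were examined at their own start sites. Of 12 genes of the miRNA pathway, 0 had a TSS peak in both mock lists, beside 3.72% of protein-coding genes, and 2 had one in both triptolide lists, beside 4.38%. With so few genes, nothing is read from these counts against their background. The 2 were Dcr-1, the miRNA dicer, with percentiles of 90.5 and 81.1, and Ars2, a cap-binding partner of Pasha, with 44.2 and 59.3. AGO1 had a peak in mock 2 alone (percentile 45.8), and Ranbp21, the fly exportin-5, in triptolide 1 alone (percentile 68.5). drosha, pasha, loqs, gw, Cbp20, Cbp80, Tailor and Nbr had none. Of 8 genes of the siRNA pathway, none had a TSS peak in both lists of a treatment, and trsn had one in triptolide 2 alone (percentile 68.8). AGO2, Dcr-2, r2d2, Hen1, loqs, armi and Trax had none.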

How the data were processed

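Peak lists of the 4 AGO2 immunoprecipitations (Kc167 cells, dm6) were used; the 4 inputs were not analysed here by themselves. Per the submitters' processing notes the authors used cutadapt 1.10, Bowtie2, Picard 2.11.0 and MACS2 2.1.1.20160309, calling peaks per replicate against input. Reads of mapping quality below 20 were discarded, so hairpins with near-identical copies (mir-983-1 and mir-983-2, mir-281-1 and mir-281-2, mir-4966-1 and mir-4966-2, the mir-10404 copies) can be missed. The deposited score follows from the −log10 q-value, multiplied by 10 and cut to a whole number. The deposited fold is a ratio, of summit pileup to the local background. Further columns deposited by the authors give −log10 p-values, −log10 q-values (lowest 1.32) and the summit offset. These values were used only to rank, filter or describe peaks within a list. Read depth is unknown.

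Genes came from Ensembl release 115. Overlap required 1 bp. Host, TSS and cluster rules are given with the results. Counts and shares per list were tested with two-sided exact permutation tests over 4 lists (Python 3.11.15, numpy 2.4.6, scipy 1.17.1). The counting of peaks near and on hairpins was checked on simulated peaks, and the permutation test on small made-up values. The other steps were not checked in this way. No source says whether replicates are separate cultures, so p-values measure only the spread between lists. Named hairpins are those with a peak in both lists of a treatment or a peak on the hairpin. Full values are given for 12, those in all 4 lists first, then by mean score percentile within mock and within triptolide. Host TSS examples were chosen after their values were seen. The loci and gene lists were chosen with earlier results of these data known. bantam and let-7 carry the symbols mir-ban and mir-let7 in this annotation and are thus included, and trax is listed as Trax. Alternatives were other windows, equal list lengths, a stricter q-value, other TSS and cluster definitions, and leaving out each list.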

Additional observations from a re-analysis of the deposited data

How the results depend on the processing

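Of 71 alternative values, 61 kept their direction or stayed within 1.5 times the reported count, 9 counts moved further and 1 reversed. Some of the 61 could not change, since leaving out a list of a treatment does not touch the count in both lists of the other. The log2 ratio of hairpins with a peak turned to -0.37 with equal list lengths. It fell to 0.13 with a −log10 q-value of at least 5, where the lists of the treatments overlapped. The ratio was 0.77 with a window of 500 bp and 1.18 with each cluster counted once, and it ranged from 1.40 to 1.57 without each list in turn. The count in both mock lists was 29 with a window of 5000 bp. It was 18 without mock replicate 1 and 16 without mock replicate 2, which are the counts of the list left. The count in both triptolide lists was 11 with a window of 500 bp, 79 with 5000 bp, 4 with equal list lengths and 5 with a −log10 q-value of at least 5. The count in both triptolide lists alone was 10, 59, 2 and 3 under the same settings. Without triptolide replicate 1 the count in both triptolide lists became 47, and without triptolide replicate 2 it became 48, again the counts of the list left. The cause was not tested, beyond the fact that shorter lists and windows hold fewer peaks. No exact test with 2 lists against 2 can give a p below 0.33.

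Whether replicate numbers pair the lists could not be told. The differences between replicates had a correlation of 0.00 between treatments over 262 hairpins. However, the mock lists differed only at mir-8 and mir-ban, which had no triptolide peak, so the value could hardly be other than near 0.00. With a replicate block the mean log2 ratio was 1.49 (two-sided exact sign-flip test over 2 pairs, p = 0.50). Host TSS shares kept their direction throughout, but the difference at any distance from the hairpin was -7.07 points without mock replicate 2, -6.79 points without triptolide replicate 2 and -5.71 points with 500 bp on either side of the TSS, against -11.1 points as defined in the report. The difference in peaks on the hairpin was -3.13 points with a window of 500 bp. Presence in a list is not a read count, and the missing depth limits every comparison of list sizes.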

Other observations

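The hairpins closest to the 1500 bp limit were these. Just inside it were mir-10404-4 in triptolide 2 (1488 bp) and mir-9380 in triptolide 1 (1483 bp). Just outside were mir-975 in triptolide 2 (1512 bp) and in triptolide 1 (1542 bp) and mir-2b-2 in mock 2 (1563 bp).

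Base composition of the regions around the hairpins is given by pattern of lists. The regions hold the peaks that define the patterns, so a difference between patterns is partly built in. GC content over the hairpin and 1500 bp on either side had a median of 41.6% at the 10 hairpins in both mock lists alone (37.4 to 46.9%). At the 30 in both triptolide lists alone the median was 46.3% (39.9 to 53.7%), and the ranges overlapped. The median was 42.4% at the 4 in all lists and 41.3% at 187 of the 189 in none, the others having no value.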
